A study of Danio rerio with 10 samples.

Results

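Brains of ppp2r2c m1/m1 zebrafish that had been fed valproate were compared with brains of wild-type (WT) zebrafish that had received vehicle. The comparison took its libraries by label alone and used 5 of the 10 RNA-seq libraries of the series, 3 from valproate-treated mutants and 2 from WT. The mutants carried a frameshift in ppp2r2c and came from a single line. They ate food soaked in valproate at 300 mg/kg for 3 days. The titles of the WT and undrugged mutant samples name no vehicle, and these fish are taken here to have received it. Every library was made from 2 pooled brains of 6-month-old fish of the Tübingen strain. The remaining libraries, 3 from mutants given methylphenidate (MPH, labelled Ritalin, 1.08 mg/kg) and 2 from mutants given vehicle, did not enter the fit and are quoted only beside it. Because the compared groups differed in both genotype and drug, a difference due to the mutation and one due to valproate cannot be told apart within this comparison.

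Protein phosphatase 2A (PP2A) is a serine/threonine phosphatase made of a scaffold, a catalytic and a regulatory subunit, and ppp2r2c encodes one of the B-type regulatory subunits, which is expressed mainly in the brain. Valproate is a branched short-chain fatty acid used against seizures and in bipolar disorder. It inhibits class I histone deacetylases, raises brain GABA and limits sodium channel firing. MPH is a stimulant that blocks the dopamine and noradrenaline transporters.

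The libraries held 19224942 to 21800447 gene counts in valproate-treated mutants and 21109195 to 21495020 in WT. Neuron markers summed to 6897 to 7392 CPM (counts scaled to a common library size, over all 10 libraries) in valproate-treated mutants and to 6107 and 6761 CPM in WT, so the neuronal markers of a brain sample were present. Pituitary markers summed to 62.3 CPM in valproate replicate 1, against 2.47 and 5.95 CPM in valproate replicates 2 and 3 and 0.82 and 3.75 CPM in WT. Retina and pineal markers were highest in valproate replicate 2 and WT replicate 2, with retina and lens sums of 107 CPM and 63.0 CPM in these and 2.05 to 3.69 CPM in the rest. Valproate replicate 1 also stood apart in level, with a median absolute log2 difference of 0.296 and 0.276 from its partners, which differed from each other by 0.184. Blood markers summed to 170 to 188 CPM in valproate-treated mutants, against 254 and 469 CPM in WT. The part of these differences in the results was not tested. In whole brains, fewer cells of a type and less RNA per cell cannot be told apart, and the p-values measure only the spread between these pooled libraries.

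The transcript of the mutated gene was not lower in valproate-treated mutants than in WT. PPP2R2C (ENSDARG00000056797) stood at 70.5, 56.1 and 59.7 CPM in valproate-treated mutants, against 50.3 and 54.7 CPM in WT. The log2 fold change was 0.25 ± 0.14 (SE, edgeR adjusted p = 0.436). Vehicle mutants of the same line stood at 46.3 and 46.7 CPM, below both WT libraries, but were not called (log2 fold change -0.17, edgeR adjusted p = 0.70). MPH mutants stood at 49.1, 70.6 and 39.3 CPM. The level of PPP2R2C in valproate-treated mutants therefore gave no support to their genotype label, on which the group and every direction given here rest. The study itself reported a reduced ppp2r2c mRNA level in mutant brains by RT-qPCR, which is a different measure. Some other transcripts stood alike in the valproate-treated and the other mutant libraries. In 8 called genes no valproate library held more than 10 counts and no other mutant library more than 6, against 57 to 3098 in WT. These 8 were picked for their low valproate counts and passed the count filter only through WT. Their low counts in valproate libraries are therefore no separate check of the label. The paralogue ppp2r2cb averaged 26.3 ± 2.90 CPM in valproate-treated mutants and 27.5 ± 1.48 CPM in WT (SD, n = 3 and n = 2), and its fitted log2 change was -0.06. Vehicle mutants stood lower, at 18.3 and 17.7 CPM, but were not called against WT (log2 fold change -0.60, edgeR adjusted p = 0.267). MPH mutants had 20.3, 30.6 and 17.8 CPM of ppp2r2cb. A list of 33 tested genes held PP2A subunits and also PP2A regulators and modifying enzymes, such as SET, PTPA and PPME1. By edgeR none of the 33 was called, and none had an unadjusted p under 0.05, whereas 15.9% of all tested genes did. Their median log2 fold change was 0.05.

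Across 20024 tested genes, 23 were called at an adjusted p under 0.05 by edgeR's quasi-likelihood test with Benjamini-Hochberg adjustment. This was 0.115% of the genes, with 9 higher (0.0449%) and 14 lower (0.0699%) in valproate-treated mutants. At an unadjusted p under 0.05 there were 3184 genes (15.9%), of which 1771 were higher (8.84%) and 1413 lower (7.06%), and 1074 (5.36%) had an unadjusted p under 0.01. The share higher and the share lower are the background for the gene groups described here, and the median log2 fold change of all genes was 0.00316. The number of calls depended on the tool. DESeq2's Wald test called 979 of 20758 genes (4.72%), 583 higher (2.81%) and 396 lower (1.91%), and included all 23 of the edgeR calls. The calls also depended on single libraries: without valproate replicates 1, 2 or 3, 17, 8 and 14 of the 23 were called, and without WT replicates 1 or 2, 5 and 6. In each of the 23 genes the CPM of the groups did not overlap, as was also true of 36.1% of all tested genes.

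**Figure D1:**
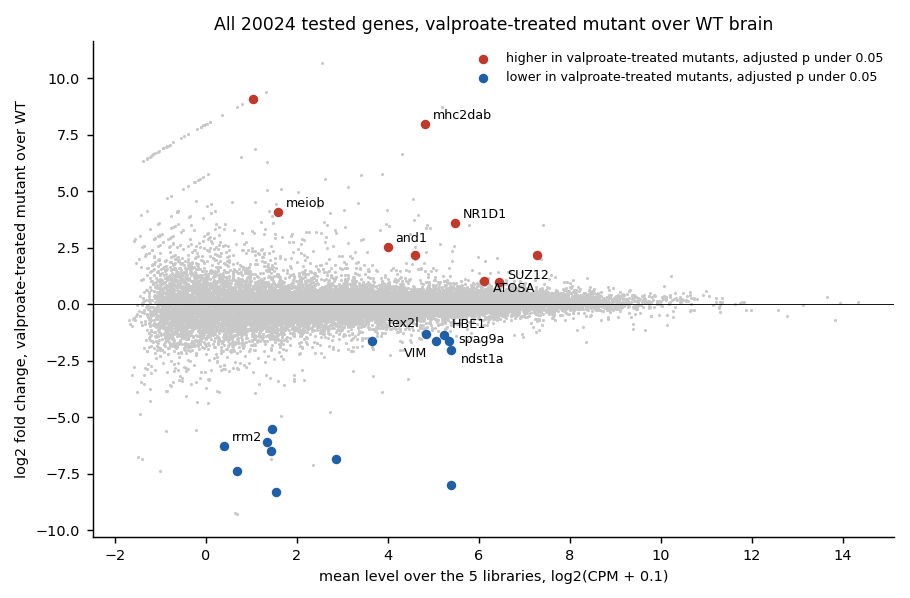
Log2 fold change of valproate-treated mutant over WT brain for each of the 20024 tested genes (vertical axis) against its mean level over the 5 libraries as log2(CPM + 0.1) (horizontal axis). Red points are the 9 genes called higher, blue points the 14 called lower, and grey points the rest; the 12 called genes that met the naming rule carry their symbols, and the blue points below -5 are almost silent in the mutants.

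The largest group of called genes consisted of transcripts that were almost silent in the mutants. In 8 of the 14 lower genes, no valproate library held more than 10 counts, while the WT libraries held 57 to 3098. These 8 passed the count filter only through WT, so a fit that needs at least 10 counts in every library cannot test them. The clearest was si:ch73-364h19.2, with 8, 10 and 6 counts in valproate-treated mutants, against 3098 and 1401 in WT. Its log2 fold change was -8.02 ± 0.44 (SE, edgeR adjusted p = 0.00346). ENSDARG00000102326 had 5, 2 and 2 counts in valproate-treated mutants, against 527 and 244 in WT. The MHC class II gene mhc2dgb (ENSDARG00000104635) had 0, 0 and 1 counts in valproate-treated mutants, against 237 and 66 in WT. Of the remaining members, si:dkey-22i16.9 had 1 to 2 counts in valproate-treated mutants, against 124 and 155 in WT. CR589944.1 had 1 to 5 counts, against 103 and 177 in WT. The clone-named neighbours si:ch73-233f7.3 and si:ch73-233f7.6 had 0 to 3 and 0 to 1 counts in valproate-treated mutants, against 132 and 128, and 77 and 86, in WT. The last was an rrm2 gene (ENSDARG00000078069), with 0, 1 and 1 counts in valproate-treated mutants and 74 and 57 counts in WT. RRM2 is the small subunit of ribonucleotide reductase, which makes the deoxynucleotides for DNA synthesis. A second gene of that name (ENSDARG00000020711) averaged 3.45 ± 1.2 CPM in valproate-treated mutants and 1.84 ± 0.104 CPM in WT (SD, n = 3 and n = 2) and was not called (log2 fold change 0.91, adjusted p = 0.347).

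All 8 were as low in the mutant libraries that the comparison did not use. Over the vehicle and MPH mutants, no library held more than 6 counts of any of them. MHC class II genes occur as families of related copies and differ between fish, and a read may be assigned to another copy or to none, so their values are uncertain to that degree. The sequences of the clone-named genes were not compared here.

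Opposite to these, si:rp71-36a1.5 was absent from the WT libraries. It had 75, 69 and 54 counts in valproate-treated mutants, against 0 and 0 in WT, which was at least 23.6-fold higher when set against 3 counts per WT library. It was also absent from 1 of the 2 vehicle mutant libraries and 1 of the 3 MPH libraries. The MHC class II gene mhc2dab stood at 25.3, 84.3 and 27.2 CPM in valproate-treated mutants, against 0.0455 and 0.309 CPM in WT. Its log2 fold change of 7.95 ± 0.93 (SE, adjusted p = 0.0443) set it apart from the silent MHC gene named above. Both si:rp71-36a1.5 and mhc2dab passed the count filter only through the valproate libraries. A fit that needs at least 10 counts in every library cannot test them. In vehicle mutants mhc2dab stood at 31.4 and 80.8 CPM, within the range of the valproate libraries. The MPH libraries ran from 0.794 CPM in replicate 2 to 41.6 CPM in replicate 3. Not every mutant library therefore stood far above WT in mhc2dab. The clone-named gene si:ch73-233f7.5, from the same clone as a pair of the silent genes, was higher by 2.15 on the log2 scale, at 32.6 to 35.8 CPM in valproate-treated mutants and 5.46 and 9.79 CPM in WT.

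A second set of called genes was lower in valproate-treated mutants, with log2 fold changes of -2.05 to -1.32, and stood at a like level in vehicle mutants. ndst1a, which encodes an enzyme that sulfates heparan sulfate chains, stood at 17.5, 18.6 and 18.4 CPM in valproate-treated mutants and at 65.5 and 85.4 CPM in WT. Its log2 fold change was -2.05 ± 0.15 (SE, adjusted p = 0.00775). The level was 21.8 and 18.1 CPM in vehicle mutants, and valproate-treated and vehicle mutants differed by a log2 fold change of -0.15 (adjusted p = 0.66). tex2l stood at 16.8, 17.9 and 17.7 CPM in valproate-treated mutants, against 44.6 and 43.0 CPM in WT (log2 fold change -1.32, adjusted p = 0.0407), and at 17.6 and 18.6 CPM in vehicle mutants. spag9a, a scaffold protein of the JNK pathway, stood at 27.3, 19.3 and 17.5 CPM in valproate-treated mutants, against 73.3 and 61.2 CPM in WT (log2 fold change -1.65, adjusted p = 0.04997). The clone-named si:ch211-203d1.3 averaged 6.61 ± 0.161 CPM in valproate-treated mutants and 20.7 ± 1.88 CPM in WT (SD, n = 3 and n = 2). In vehicle mutants spag9a stood at 18.7 and 20.5 CPM and si:ch211-203d1.3 at 5.19 and 7.19 CPM.

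meiob, a single-stranded DNA binding protein of meiotic recombination, was called in the other direction. It had 94, 84 and 107 counts in valproate-treated mutants, against 4 and 8 in WT (log2 fold change 4.06 ± 0.47, SE, adjusted p = 0.0443). It passed the count filter only through the valproate libraries, so a fit that needs at least 10 counts in every library cannot test it. In the RefSeq annotation of the GRCz12tu assembly, meiob and tex2l lie on the same chromosome with 3 annotated genes between them. ATOSA was higher by 1.03 on the log2 scale (adjusted p = 0.04997), at 87.5, 81.0 and 85.3 CPM in valproate-treated mutants and 44.6 and 38.6 CPM in WT. Vehicle mutants had intermediate levels of both, 1.01 and 2.41 CPM of meiob and 56.6 and 63.6 CPM of ATOSA.

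A further set of called genes had the WT level in vehicle mutants. The nuclear receptor NR1D1 (Rev-erb alpha, ENSDARG00000033160), which represses bmal1 in the circadian clock, stood at 53.3, 76.5 and 76.5 CPM in valproate-treated mutants, against 6.87 and 4.59 CPM in WT. It rose 12-fold (log2 fold change 3.59 ± 0.26, SE, adjusted p = 0.00775), and without WT replicate 2 its log2 fold change was 3.32 (adjusted p = 0.0501). Vehicle mutants had 6.99 and 7.42 CPM and MPH mutants 50.1 to 70.4 CPM. Against vehicle mutants the valproate-treated mutants were higher by 3.24 on the log2 scale (adjusted p = 0.011), and against MPH mutants by 0.14 (adjusted p = 1). SUZ12 (ENSDARG00000098924), a core subunit of the repressive complex that methylates histone H3 at lysine 27, stood at 103, 108 and 103 CPM in valproate-treated mutants and 53.6 and 54.1 CPM in WT. It rose 1.94-fold (adjusted p = 0.0487) and stood at 49.5 and 54.2 CPM in vehicle mutants and at 88.2, 107 and 91.1 CPM in MPH mutants.

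and1, a structural gene of the fin fold in zebrafish, stood at 17.3, 28.4 and 23.9 CPM in valproate-treated mutants, against 3.64 and 4.41 CPM in WT, and rose 5.76-fold (adjusted p = 0.0443). ENSDARG00000099719, which has no symbol, stood at 191, 215 and 252 CPM in valproate-treated mutants, against 36.2 and 60.4 CPM in WT (log2 fold change 2.19, adjusted p = 0.0443). MPH mutants had 20 to 33.9 CPM of and1 and 159 to 346 CPM of ENSDARG00000099719, and vehicle mutants 4.92 and 9.24 CPM and 24.9 and 40.4 CPM.

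VIM (vimentin, ENSDARG00000044501), the intermediate filament of radial glia, fell to 19.3, 15.7 and 18.1 CPM in valproate-treated mutants, against 65.4 and 44.4 CPM in WT. The log2 fold change was -1.63 ± 0.19 (SE, adjusted p = 0.0459), and vehicle mutants lay between the groups at 42.1 and 36.2 CPM. MPH mutants had 24.1, 17.5 and 27.3 CPM of VIM. A globin gene listed as HBE1 (ENSDARG00000097238) fell to 20.6, 21.9 and 24.8 CPM in valproate-treated mutants, against 56.5 and 59.9 CPM in WT (log2 fold change -1.37, adjusted p = 0.0407). Globin copies share sequence, and the blood marker alas2, the haem synthesis enzyme of red cells, was at 13.9 to 14.9 CPM in valproate-treated mutants and 31.3 and 53.4 CPM in WT.

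**Figure D2:**
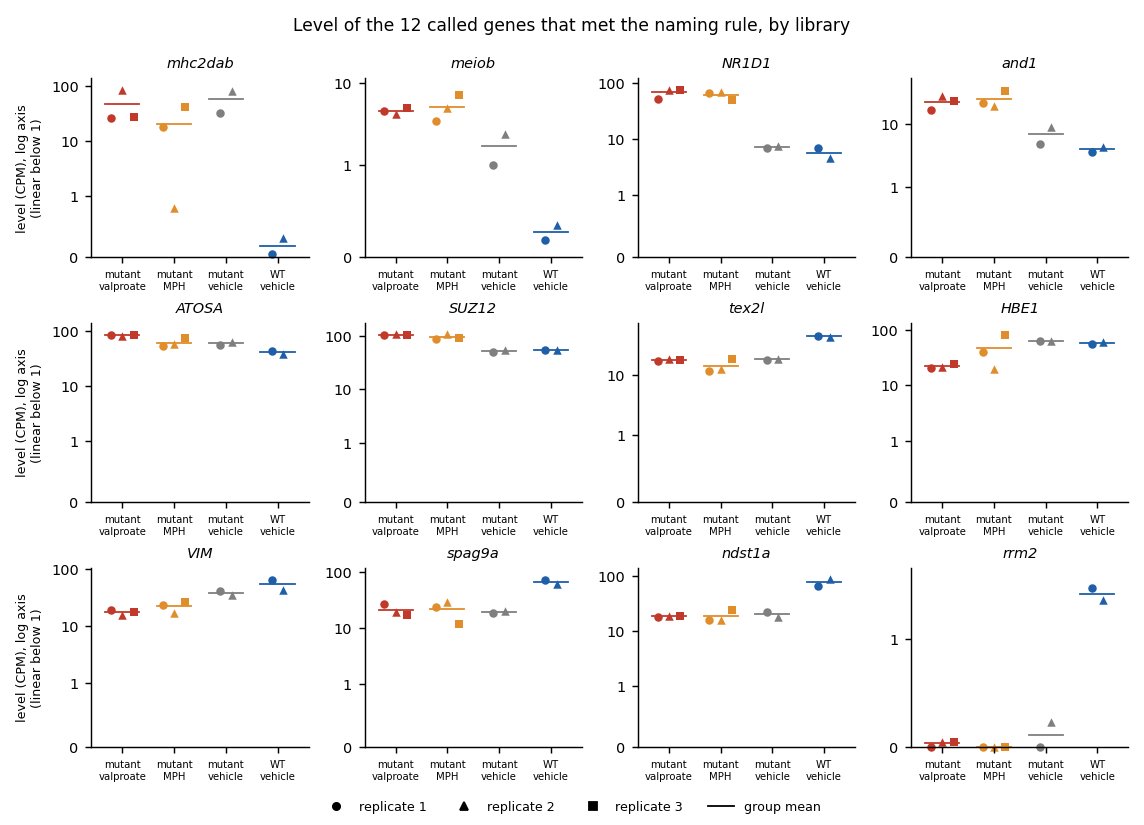
Level of the 12 called genes that met the naming rule, in CPM on a log axis that is linear below 1, with 1 point per library and a line at each group mean. Groups are valproate-treated mutants, MPH mutants, vehicle mutants and WT; the vehicle mutants sit with the valproate-treated mutants for ndst1a (18.1 to 21.8 CPM) and tex2l, and with WT for NR1D1 (6.99 and 7.42 CPM) and SUZ12.

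The 12 genes next in order of p that met the naming rule were not called, with adjusted p from 0.052 to 0.06. They included gpt2l, an alanine transaminase, at 92.9 to 122 CPM in valproate-treated mutants and 233 CPM in both WT libraries (log2 fold change -1.15). cbln2a, a synapse-organising cerebellin, averaged 41.2 ± 4.53 CPM in valproate-treated mutants and 17.8 ± 1.19 CPM in WT (SD, n = 3 and n = 2). kcnj11l, a potassium channel subunit gene, averaged 21.9 ± 0.403 CPM in valproate-treated mutants and 7.78 ± 1.54 CPM in WT, and 22.6 and 26.5 CPM in vehicle mutants. The proprotein convertase PCSK6, the serpin serpinb1l3, the matrix protein MATN4, and USB1, which trims U6 RNA, had positive log2 fold changes of 1.05 to 2.01. ccdc125 and adprh had -3.14 and -1.61. The others were nr1d2a, HSPA8 and HSP90AA1, described below with their groups.

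The circadian clock runs on activators that switch on their own repressors, and NR1D1 belongs to a loop that represses the activators. Of 17 tested clock repressors, 1 was called (NR1D1), and 6 had an unadjusted p under 0.05, all with positive log2 fold changes. DESeq2 called 4 higher. nr1d2a, a sister receptor of NR1D1, stood at 325, 174 and 182 CPM in valproate-treated mutants, against 50.9 and 49.1 CPM in WT (log2 fold change 2.18, adjusted p = 0.0591). The libraries of valproate-treated mutants disagreed for much of the group. nr1d4a, nr1d4b, PER1, PER3, CLOCK, FKBP5 and KLF9 were chosen for description after their values were seen.

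nr1d4a stood at 11.6, 46.5 and 47.8 CPM in valproate replicates 1, 2 and 3, against 6.28 and 6.04 CPM in WT. nr1d4b stood at 6.31, 50.3 and 53.2 CPM in valproate replicates 1, 2 and 3, against 2.64 and 2.96 CPM in WT. PER1 (ENSDARG00000056885), a period gene, had the opposite order, 23.1, 4.93 and 6.23 CPM in valproate-treated mutants, against 3.55 and 3.13 CPM in WT. PER3 stood at 125, 19.6 and 19.7 CPM in valproate-treated mutants, against 62.5 and 49.6 CPM in WT, so that replicate 1 lay above and the others below both WT libraries. BHLHE40, a repressor of the clock activators, stood at 408, 108 and 134 CPM in valproate-treated mutants, against 325 and 331 CPM in WT. Without valproate replicate 1, edgeR called 4 of the 17 repressors higher and 2 lower, and the median of the group was -0.05, against 0.38 with all 5 libraries. The MPH libraries also disagreed in these genes, with PER3 at 141, 179 and 12.3 CPM.

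Clock activators were less divided. All but 1 of 14 tested members had positive log2 fold changes, 6 with an unadjusted p under 0.05, and the median was 0.41. Without WT replicate 1 there were 2 at that threshold. None was called, and DESeq2 called 3 higher. The BMAL1 gene ENSDARG00000035732, whose product drives clock transcription, stood at 36.1, 35.4 and 32.2 CPM in valproate-treated mutants, against 16.2 and 19 CPM in WT (log2 fold change 0.98, adjusted p = 0.0682). The BMAL1 gene ENSDARG00000006791 had a log2 fold change of 0.56 (adjusted p = 0.149). CLOCK (ENSDARG00000011703), the partner of BMAL1, stood at 15.7, 26.1 and 29.9 CPM in valproate-treated mutants, against 9.33 and 12.4 CPM in WT. Among the clock-output bZIP factors, all 9 tested genes had positive log2 fold changes with a median of 0.71, 4 of them with an unadjusted p under 0.05. Without valproate replicate 1 the median was 0.40, with 3 higher and 1 lower at that threshold. dbpb stood at 67.4, 71.1 and 55.0 CPM in valproate-treated mutants, against 32.6 and 26.4 CPM in WT (adjusted p = 0.0612). nfil3-5, from the repressor branch of that family, averaged 130 ± 49.6 CPM in valproate-treated mutants and 49.1 ± 16.2 CPM in WT (SD, n = 3 and n = 2). The collection time of day is not given in the sources used here.

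Among genes that respond to cortisol, FKBP5 and KLF9 divided the libraries in the same way as PER1. FKBP5, a co-chaperone that dampens the glucocorticoid receptor, stood at 634, 59.7 and 88.1 CPM in valproate-treated mutants, against 22.3 and 23.6 CPM in WT. Its log2 fold change was 3.51 with an adjusted p of 0.189, and replicate 1 was far above the others. KLF9, a transcription factor induced by glucocorticoids, stood at 95.8, 21.2 and 13.8 CPM in valproate-treated mutants, against 3.69 and 4.81 CPM in WT (adjusted p = 0.151). In both genes every valproate library lay above every WT library, and vehicle mutants were at 15.0 and 15.1 CPM of FKBP5 and 1.76 and 1.82 CPM of KLF9. Of 28 tested cortisol-related genes, 7 were higher and 1 lower at an unadjusted p under 0.05. None was called by edgeR, and DESeq2 called 5 higher and 1 lower. More even between libraries were ZBTB16, at 114, 89.6 and 92.2 CPM in valproate-treated mutants and 59.4 and 60.1 CPM in WT, and foxo3b, with a log2 fold change of 0.76. FKBP4, the counterpart of FKBP5 that supports receptor signalling, stood at 137, 133 and 127 CPM in valproate-treated mutants, against 214 and 215 CPM in WT (log2 fold change -0.69, adjusted p = 0.0701). The library with the highest PER1, FKBP5 and KLF9 was also the one with 62.3 CPM of pituitary markers, and the part of those markers was not tested.

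**Figure D3:**
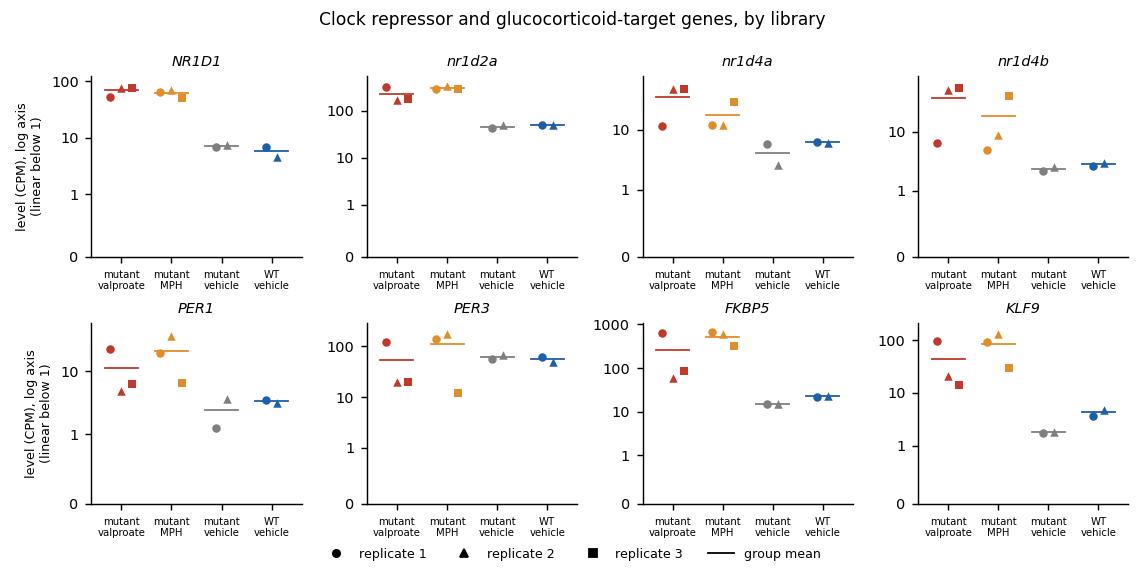
Level of clock repressor genes (NR1D1, nr1d2a, nr1d4a, nr1d4b, PER1, PER3) and the cortisol-responsive genes FKBP5 and KLF9 in each library, in CPM on a log axis that is linear below 1; lines are group means and marker shapes are replicate numbers. NR1D1 is above WT in all 3 valproate libraries, whereas PER3 is above WT in replicate 1 (125 CPM) and below it in replicates 2 and 3 (19.6 and 19.7 CPM).

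Heat shock and unfolded protein response genes tended to be lower. Of 44 tested, 16 had an unadjusted p under 0.05 with a lower level and 2 with a higher one, against 7.06% and 8.84% of all genes, and the median was -0.27. None was called by edgeR, and DESeq2 called 10 lower. In MPH mutants against WT the median was -0.35, with 20 lower and 3 higher at that threshold, and edgeR called 3 lower. In vehicle mutants against WT it was -0.02, with 6 lower and 1 higher. HSPA8 (ENSDARG00000037403), a constitutive cytosolic Hsp70, stood at 113, 81.0 and 96.7 CPM in valproate-treated mutants, against 210 and 242 CPM in WT (log2 fold change -1.22, adjusted p = 0.0591). HSP90AA1 (ENSDARG00000024746), a cytosolic Hsp90, stood at 180, 135 and 192 CPM in valproate-treated mutants, against 420 and 672 CPM in WT (log2 fold change -1.69, adjusted p = 0.06). The small heat shock protein HSPB1 averaged 18.5 ± 1.08 CPM in valproate-treated mutants and 39.2 ± 6.54 CPM in WT (SD, n = 3 and n = 2). The stress-induced hsp70l stood at 2.72, 2.12 and 1.38 CPM in valproate-treated mutants, against 5.78 and 13.0 CPM in WT, and HSPA4 (ENSDARG00000004754) had a log2 fold change of -0.92. HSPB1, hsp70l and HSPA4 were picked after their values were seen. In contrast, hsf1, the transcription factor that switches heat shock genes on, averaged 51.8 ± 8.01 CPM in valproate-treated mutants and 39.0 ± 1.89 CPM in WT, and TRIB3, a target of the integrated stress response, had a log2 fold change of 0.79. Leaving out any 1 of the 5 libraries left 12 to 19 members with a lower level at an unadjusted p under 0.05.

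Interferon-induced and antigen presentation genes had a median log2 fold change of 0.87 over 31 tested genes. Of these, 10 had an unadjusted p under 0.05, all higher, whereas with limma-voom and quality weights 2 were higher and 1 lower. The only edgeR call was mhc2dab, and DESeq2 called 6 higher. In level the group did not separate, with summed CPM of 1742, 2217 and 1339 in valproate-treated mutants, against 1980 and 1229 in WT. The interferon-induced members named next were highest in valproate replicates 1 and 2, unlike mhc2dab. isg15, a ubiquitin-like protein induced by interferon, stood at 46.5, 80.0 and 5.77 CPM in valproate-treated mutants, against 5.83 and 2.12 CPM in WT (adjusted p = 0.187), so replicate 3 lay within the WT range. stat2, which carries the interferon signal to the nucleus, stood at 85.6, 144 and 34.9 CPM in valproate-treated mutants, against 24.5 and 16.9 CPM in WT. The antiviral GTPases mxa and mxb stood at 16.6, 13.3 and 2.03 CPM and at 4.07, 7 and 0.507 CPM in valproate-treated mutants, against 0.662 to 1.5 CPM and 0.0441 to 0.182 CPM in WT. isg15, stat2 and mxa were picked after their values were seen. In these genes the vehicle and MPH libraries lay below valproate replicates 1 and 2, with stat2 at 13.2 to 25.4 CPM and isg15 at 1.58 to 7.17 CPM. Without valproate replicate 3 edgeR called 7 members higher. The median of the group was 0.41 without valproate replicate 2, 0.44 without WT replicate 2 and 1.57 without WT replicate 1, and mhc2dab was not called without either WT replicate (adjusted p = 0.213 and 0.167).

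**Figure D4:**
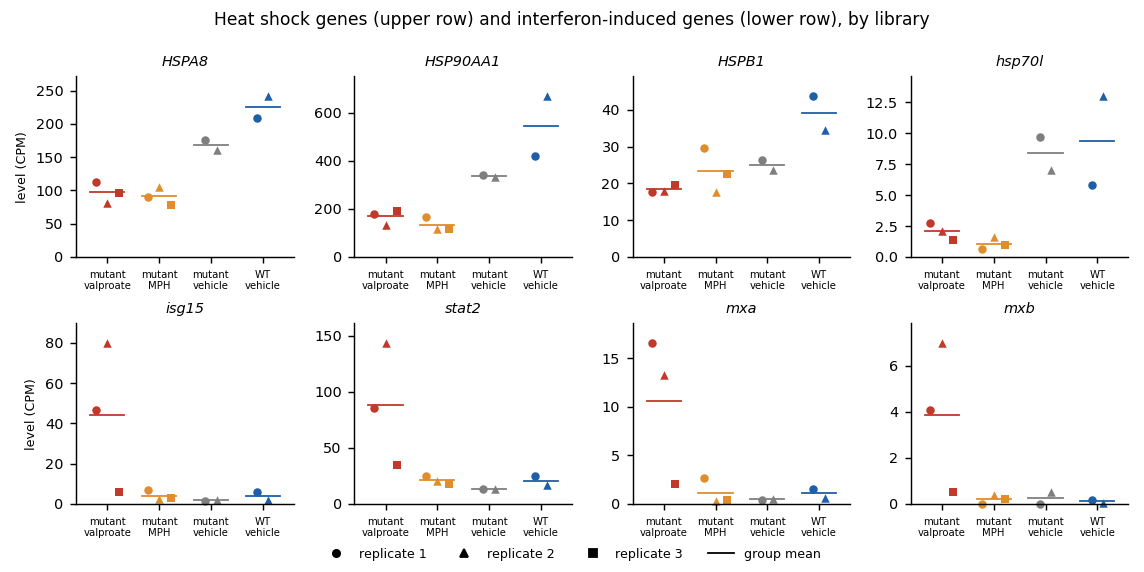
Level of heat shock genes HSPA8, HSP90AA1, HSPB1 and hsp70l (upper row) and interferon-induced genes isg15, stat2, mxa and mxb (lower row) in each library, in CPM on linear axes from 0; lines are group means and marker shapes are replicate numbers. The 3 valproate libraries lie below both WT libraries in the upper row, and only replicates 1 and 2 stand clear of WT in isg15 (46.5 and 80.0 CPM).

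Genes for histone acetylation, the process that valproate acts on through deacetylases, shared a direction. All 20 tested writers, readers and corepressors of acetylation had positive log2 fold changes, with a median of 0.30, whereas 50.3% of all tested genes were above 0. Against WT, the list median was also above 0 in mutants without valproate, at 0.20 in MPH mutants and 0.10 in vehicle mutants. At an unadjusted p under 0.05, 10 of the 20 were higher in valproate-treated mutants and none lower. None was called by edgeR (3 by DESeq2), and 2 were higher at that threshold without WT replicate 1, 4 without valproate replicate 3 and 6 to 10 without any other 1 library. The acetyltransferase gene kat7a stood at 92.5, 95.2 and 92.4 CPM in valproate-treated mutants, against 66.1 and 58.3 CPM in WT (log2 fold change 0.59, adjusted p = 0.111). The scaffold of a deacetylase corepressor, SIN3A (ENSDARG00000079716), stood at 74.7, 64.8 and 63.3 CPM in valproate-treated mutants, against 36.4 and 47.3 CPM in WT.

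Most deacetylases had negative log2 fold changes. Of 19 tested, 14 were below 0, and 1 was higher and 2 lower at an unadjusted p under 0.05. The median was -0.22. Leaving out 1 library it ran from -0.30 without valproate replicate 3 to -0.12 without valproate replicate 1, and was -0.18 without WT replicate 1. Against WT, the median was -0.17 in vehicle mutants and -0.18 in MPH mutants. HDAC5, a class II enzyme, averaged 27.8 ± 3.00 CPM in valproate-treated mutants and 19.4 ± 4.57 CPM in WT (SD, n = 3 and n = 2). HDAC11 stood at 5.82, 7.40 and 7.66 CPM in valproate-treated mutants, against 12.1 and 9.97 CPM in WT (adjusted p = 0.236), and the mitochondrial deacylase SIRT5 had a log2 fold change of -0.48. Linker histone genes histh1l1 and h1f0, which compact chromatin, stood at 223, 176 and 80.8 CPM and at 402, 401 and 219 CPM in valproate-treated mutants. In WT they stood at 61.6 and 58.5 CPM and at 222 and 210 CPM (adjusted p = 0.164 and 0.277). For h1f0 the third valproate library lay within the WT range.

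Genes of excitability, where the sodium channel and GABA actions of valproate lie, split by member. Of 23 tested voltage-gated sodium and calcium channel genes, 10 were higher and 2 lower at an unadjusted p under 0.05, and the median was 0.43. None was called by edgeR, and DESeq2 called 4 higher and 1 lower. The T-type calcium channel gene cacna1ha stood at 95.5, 75.7 and 80.6 CPM in valproate-treated mutants, against 49.3 and 60.1 CPM in WT (log2 fold change 0.62, adjusted p = 0.148). The sodium channel gene scn1lab, orthologue of the gene mutated in Dravet syndrome, stood at 180, 171 and 172 CPM in valproate-treated mutants, against 110 and 138 CPM in WT. The auxiliary subunit SCN4B (ENSDARG00000060319) averaged 4.96 ± 1.24 CPM in valproate-treated mutants and 11.2 ± 3.77 CPM in WT (SD, n = 3 and n = 2), and the R-type calcium channel gene cacna1eb had a log2 fold change of -0.59. Without WT replicate 1, 2 channel genes were higher and 2 lower at that threshold (median 0.28), and without valproate replicate 1 the median was 0.24.

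NMDA receptor subunits went in both directions. GRIN2C (ENSDARG00000078149) stood at 97.3, 66.4 and 83.0 CPM in valproate-treated mutants, against 24.4 and 39.4 CPM in WT (log2 fold change 1.37, adjusted p = 0.0933). The obligate subunit GRIN1 (ENSDARG00000025728) averaged 387 ± 19.4 CPM in valproate-treated mutants and 253 ± 33 CPM in WT (SD, n = 3 and n = 2). GRIN2B (ENSDARG00000079348) stood at 25.0, 25.3 and 28.0 CPM in valproate-treated mutants, against 44.1 and 40.7 CPM in WT (log2 fold change -0.70, adjusted p = 0.104). Over all 39 tested glutamate and GABA receptor genes, 6 were higher and 3 lower at an unadjusted p under 0.05 (2 and 3 without valproate replicate 3, 3 and 2 without WT replicate 1). In GABA handling 1 of 19 genes was higher and 5 were lower at that threshold. The GABA transporter gene SLC6A13 (ENSDARG00000067567), expressed in meninges rather than neurons in mammals, stood at 3.74, 7.20 and 6.55 CPM in valproate-treated mutants, against 22.4 and 20.6 CPM in WT (log2 fold change -1.88, adjusted p = 0.0612). The glial glutamate transporter gene SLC1A3 had a log2 fold change of -0.48 (adjusted p = 0.15).

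Radial glia and neural stem genes leaned lower, although a separate list of radial glia markers did not. Of the 8 tested markers 4 were above 0 and 4 below, and they summed to 9358, 6035 and 6111 CPM in valproate-treated mutants, against 7244 and 6762 CPM in WT. Of 42 tested radial glia and neural stem genes, 10 were lower at an unadjusted p under 0.05, 1 was higher, and the median was -0.23. VIM was the only edgeR call, and DESeq2 called 5 lower and 1 higher. FABP7, a lipid carrier of radial glia, stood at 14.9, 11.4 and 12 CPM in valproate-treated mutants, against 29.1 and 25.9 CPM in WT (log2 fold change -1.10, adjusted p = 0.0705). The higher gene was NEUROD1, a neuronal differentiation factor, at 694, 505 and 525 CPM in valproate-treated mutants and 386 and 307 CPM in WT. Leaving out 1 library at a time left 6 to 12 genes lower, the fewest without WT replicate 2. VIM was called without valproate replicate 1 and not without any other 1 library (log2 fold change -1.89 to -1.32, adjusted p = 0.0501 to 0.154). Oligodendrocyte and myelin genes had a median of -0.40 over 26 tested genes, with 7 lower and 1 higher at an unadjusted p under 0.05. None was called by edgeR, and DESeq2 called 1 lower. FA2H, which makes the hydroxylated lipids of myelin, stood at 31.0, 27.3 and 32.7 CPM in valproate-treated mutants, against 75.2 and 39.0 CPM in WT. Without WT replicate 1 none of the myelin genes had an unadjusted p under 0.05, and without valproate replicate 2 there were 3 lower. All 8 tested oligodendrocyte markers had negative log2 fold changes, and their summed level was 6327 to 10478 CPM in valproate-treated mutants and 8907 and 14155 CPM in WT.

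Other non-neuronal markers went different ways. Endothelial markers summed to 66.6 to 78.2 CPM in valproate-treated mutants and to 64.1 and 70.0 CPM in WT, and skin markers to 54.9 to 64.6 CPM in valproate-treated mutants and to 51.2 and 53.3 CPM in WT. Meningeal and fibroblast markers summed to 85.8 to 99.7 CPM in valproate-treated mutants and to 138 and 161 CPM in WT, with COL1A2 at a log2 fold change of -1.06 (adjusted p = 0.071). Choroid and ependymal markers summed to 62.6 to 71.6 CPM in valproate-treated mutants and to 97.6 and 107 CPM in WT. Of 4 blood markers, 3 were lower at an unadjusted p under 0.05, among them alas2 (log2 fold change -1.55, adjusted p = 0.06). The part of these cell types in the lower levels of VIM, HBE1 and SLC6A13 was not tested. Complement and microglia genes divided evenly, with 4 of 29 tested genes higher and 4 lower at an unadjusted p under 0.05 (7 higher and none lower without valproate replicate 3). Among them lysozyme (lyz) averaged 11.1 ± 2.15 CPM in valproate-treated mutants and 3.07 ± 1.71 CPM in WT, and apoeb, the lipoprotein of microglia, stood at 252, 335 and 226 CPM in valproate-treated mutants, against 389 and 400 CPM in WT.

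Cell-cycle groups showed few differences between valproate-treated mutants and WT. Of 59 tested replication genes, 5 were lower and 1 higher at an unadjusted p under 0.05, and the median was 0.02. The rrm2 gene above was the only edgeR call, and DESeq2 called 2 lower. The topoisomerase TOP1 (ENSDARG00000070545) stood at 75.8, 69.8 and 70.7 CPM in valproate-treated mutants, against 137 and 106 CPM in WT (log2 fold change -0.75, adjusted p = 0.102). Of 43 tested mitosis genes 2 were higher and none lower at an unadjusted p under 0.05. Vehicle mutants differed more from WT. Their median was 0.51 over 59 replication genes, with 21 higher and 1 lower at that threshold. Over 45 mitosis genes it was 1.05, with 20 higher and 1 lower. In MPH mutants against WT the median over the replication genes was 0.08, with 7 higher and 3 lower. Over the mitosis genes it was 0.24, with 3 higher and none lower. Of 50 tested p53 and growth-arrest genes 8 were higher and 2 lower in valproate-treated mutants than in WT at that threshold. None was called by edgeR, and DESeq2 called 3 higher and 1 lower. hbp1, a repressor of cell-cycle entry, stood at 43.0, 42.1 and 39.2 CPM in valproate-treated mutants, against 19.9 and 22.6 CPM in WT (log2 fold change 0.96, adjusted p = 0.06), and at 10.5 and 11.4 CPM in vehicle mutants. RRM2B, the ribonucleotide reductase subunit induced by p53, stood at 34, 27.2 and 24.3 CPM in valproate-treated mutants, against 107 and 66.8 CPM in WT (log2 fold change -1.61, adjusted p = 0.06), and at 21.5 and 24.8 CPM in vehicle mutants. The arrest gene cdkn1a, picked after its values were seen, stood at 2.43, 6.66 and 6.09 CPM in valproate-treated mutants, against 1.05 and 0.441 CPM in WT (adjusted p = 0.128). Among 37 tested genes of inflammation and the senescence-associated secretome, 6 were higher and 2 lower at an unadjusted p under 0.05, but 2 were higher and 3 lower without valproate replicate 2 or without WT replicate 2, and 2 higher and 1 lower without WT replicate 1.

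Genes of tyrosine breakdown and of monoamines, receptors included, leaned lower. Of 41 tested, 7 were lower and 1 higher at an unadjusted p under 0.05, with a median of -0.24. None was called by edgeR, and DESeq2 called 4 lower and 1 higher. Against WT, the median was -0.25 in MPH mutants, with 8 lower at that threshold, and -0.13 in vehicle mutants, with 6 lower. mao, the single zebrafish monoamine oxidase, stood at 52.5, 56.4 and 56.8 CPM in valproate-treated mutants, against 101 and 93.2 CPM in WT (log2 fold change -0.81, adjusted p = 0.06), and at 93.8 and 81.7 CPM in vehicle mutants. hpdb, a tyrosine-degrading dioxygenase, averaged 0.427 ± 0.207 CPM in valproate-treated mutants and 3.06 ± 0.702 CPM in WT, and 0.967 and 0.227 CPM in vehicle mutants. The dopamine receptor gene drd4a stood at 11.7, 12.6 and 12.4 CPM in valproate-treated mutants, against 7.65 and 5.12 CPM in WT.

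Metabolic groups gave no edgeR calls with all 5 libraries. DESeq2 called 4 fatty acid oxidation genes higher, and 2 higher and 1 lower among pyruvate dehydrogenase and its kinases. It called 1 cholesterol gene higher and 1 lower, and 1 gene of ketone bodies and branched-chain amino acids lower. It also called 1 sodium pump gene higher and 1 antioxidant gene lower. pdk2a, a kinase that switches off pyruvate dehydrogenase, stood at 41.6, 56.1 and 32.4 CPM in valproate-treated mutants, against 15.2 and 15.7 CPM in WT (log2 fold change 1.49, adjusted p = 0.0701), while vehicle mutants were at 5.93 and 7.14 CPM. In fatty acid oxidation, through which valproate is itself broken down, 5 of 35 tested genes were higher and 4 lower at an unadjusted p under 0.05 (4 and none without WT replicate 1). The lipid-sensing receptor pparaa stood at 43.2, 35.6 and 38.4 CPM in valproate-treated mutants, against 21.7 and 21.9 CPM in WT (log2 fold change 0.85, adjusted p = 0.0842). Of 34 tested cholesterol genes 1 was higher and 3 lower at that threshold, with a median of -0.25. Without valproate replicate 1 this group had 16 lower at that threshold, 3 of them called by edgeR, and a median of -0.58, and limma-voom with quality weights gave 12 lower. The higher gene was ABCA1 (ENSDARG00000074635), the cholesterol exporter, at 284, 222 and 226 CPM in valproate-treated mutants and 83.5 and 118 CPM in WT (log2 fold change 1.28, adjusted p = 0.0612). The counts that follow are also at an unadjusted p under 0.05. Of 14 tested genes of pyruvate dehydrogenase and its kinases 2 were higher and 1 lower. Of 20 for ketone bodies and branched-chain amino acids none was higher and 2 were lower, and of 9 urea cycle genes 1 was higher. Of 14 sodium pump genes 3 were higher and 1 lower, and of 11 linker and replacement histone genes 2 were higher. Of 43 antioxidant genes 5 were lower and none higher. Of 77 cytosolic ribosomal protein genes 1 was higher and 1 lower (1 higher and 8 lower without valproate replicate 1). By sign alone, 18 ribosomal protein genes were above 0 and 59 below, and 22 antioxidant genes were above 0 and 21 below.

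Signalling groups stood near the all-gene level. In the Wnt and Gsk3 group 6 of 46 tested genes were higher and 5 lower at an unadjusted p under 0.05. The Wnt target SP5 stood at 36.1, 39.1 and 38.5 CPM in valproate-treated mutants, against 19.3 and 22.6 CPM in WT (log2 fold change 0.86, adjusted p = 0.0805). The secreted Wnt inhibitor SFRP5 stood at 12.2, 17.9 and 22.3 CPM in valproate-treated mutants, against 41.4 and 32.6 CPM in WT. Of 33 tested immediate early genes none was higher and 3 were lower at that threshold, among them NR4A1 (log2 fold change -0.88, adjusted p = 0.189). This direction depended on the WT library left out, as 8 were lower and none higher without WT replicate 1 and 5 were higher and none lower without WT replicate 2. Of 39 tested neuropeptide genes 3 were higher and 4 lower at an unadjusted p under 0.05. Among these genes npb stood at 63.8, 103 and 73.3 CPM in valproate-treated mutants and 40.6 and 37.9 CPM in WT (adjusted p = 0.12).

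**Figure D5:**
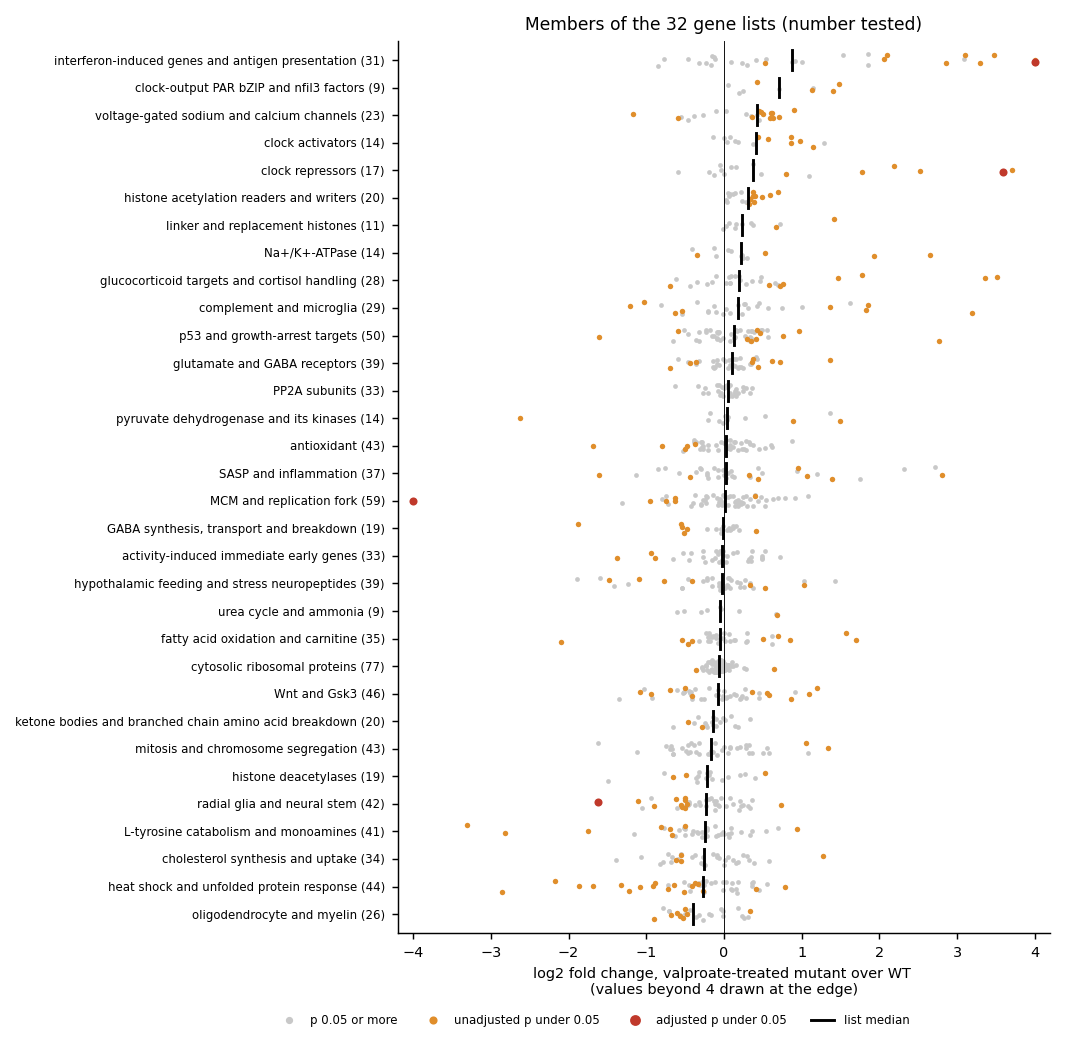
Log2 fold change of valproate-treated mutant over WT (horizontal axis) for every tested member of the 32 gene lists (rows, with the number tested), with black bars at the list medians and values beyond 4 drawn at the edge. Orange points have an unadjusted p under 0.05 and red points an adjusted p under 0.05; with all 5 libraries, medians run from -0.40 in oligodendrocyte and myelin genes to 0.87 in interferon-induced genes.

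The distance between libraries put these differences in scale. Over the 20024 genes, the median absolute log2 difference of a valproate library from a WT library was 0.31 (0.283 to 0.37 over 6 pairs). Between 2 valproate libraries it was 0.184 to 0.296, and between the WT libraries 0.244. From vehicle mutants the valproate libraries differed by 0.31 (0.254 to 0.325 over 6 pairs), close to their distance from WT. Vehicle mutants lay nearer to WT, at 0.257 (0.229 to 0.27 over 4 pairs), and MPH mutants farther, at 0.358 (0.318 to 0.425 over 6 pairs). In fits of the same kind, edgeR called 26 of 19850 genes (0.131%) between valproate-treated and vehicle mutants. Against WT, it called 38 of 19695 (0.193%) in vehicle mutants and 39 of 20052 (0.194%) in MPH mutants. An unadjusted p under 0.05 was found for 10% and 11.6% of genes there, and for 15.9% in valproate-treated mutants against WT. Between valproate-treated and MPH mutants edgeR called 0 of 19387, where 787 had an unadjusted p under 0.05 (4.06%). The MPH libraries differed from each other by a median of 0.365 (0.303 to 0.391). This was more than the 0.299 between valproate and MPH libraries, so the lack of calls does not show that these groups were alike.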

How the data were processed

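The deposited table holds gene counts, which the authors made from paired-end reads (rRNA and poor reads removed, trimmed to 100 bases) with STAR 2.6.1d and its gene counting on the zebrafish zv10 release. The kit did not mark strand as far as stated, so antisense overlaps cannot be separated. Names came from a table of Ensembl identifiers (26433 of 32266 matched) and, for 286 genes, from the study's tables. Counts of the 5 libraries were filtered with filterByExpr (10 counts, total 15), scaled by TMM and fitted in edgeR 4.0.16 (quasi-likelihood, R 4.3.3) with Benjamini-Hochberg adjustment. The authors used DESeq2, run here (1.42.0) as an alternative with limma 3.58.1. CPM in the text are scaled over 10 libraries. On simulated counts for this comparison (19590 genes tested), edgeR recovered 49 of 100 genes changed 2-fold and 81 of 100 changed 4-fold, with 8 false calls. The simulated spread depended only on a gene's level, no library stood apart, and genes of low level were not changed. Recovery and false calls in the real libraries may therefore be worse.

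The text names PP2A genes, list members with a call, up to 24 genes (called or next by p) with non-overlapping groups, a mean CPM of at least 1 and a symbol, and list examples by smallest p. Called genes outside that rule were named because so few were called. The members and gene lists were chosen with earlier results of these data known. No columns of the authors' own comparisons were in the table. Replicates of a group differed by more than sampling noise.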

Additional observations from a re-analysis of the deposited data

How the results depend on the processing

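The count of 23 calls moved with the tool and the filter. It was 228 without a filter on low counts, 64 with at least 10 counts in every library, 61 with all 10 libraries in one fit, 979 and 922 by DESeq2's Wald and likelihood ratio tests, and 86 by limma-voom with quality weights, where valproate replicate 1 had a weight of 0.498 and the others 0.924 to 1.63. It was 161 at an adjusted p under 0.10, 3184 at an unadjusted p under 0.05, 1074 at an unadjusted p under 0.01, and 20 with DESeq2 size factors. Leaving out 1 library gave 12 to 57 calls: 57 without valproate replicate 1, 12 without valproate replicate 2, 44 without valproate replicate 3, 25 without WT replicate 1 and 16 without WT replicate 2. Of the 23 called genes, 17, 8, 14, 5 and 6 were called in these fits in the same order. With the replicate number as a block there were 117 calls, 80 higher and 37 lower. The shared numbers mark no common animal or batch in the labels, so they were not taken as pairs. Over all tested genes, same-numbered libraries deviated together with r of 0.0389 and 0.0476. With 2 WT libraries this r only changes sign between them, and it cannot show a shared effect limited to few genes. Retina and pineal markers were highest in both libraries numbered 2, and a shared origin was not tested. The 23 called genes kept their sign in all 288 values from alternatives, but 82 of these values were not called. Since the groups did not overlap in any of the 23, a sign could hardly reverse, so the kept signs do not measure robustness. Reversed signs were found for ppp2r2cb, at 0.028 with the replicate block and -0.13 to 0.019 leaving out 1 library, and for PER3, at -1.51 to 0.36 leaving out 1 library, above 0 without valproate replicates 2 or 3 or WT replicate 1. Depth limits the silent genes: 3 counts equal 0.138 to 0.148 CPM in valproate-treated mutants and 0.132 to 0.137 CPM in WT. The causes of these changes were not tested.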
